A study of Mus musculus with 16 samples.

Results

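Mitochondrial ribosomal proteins are made from nuclear genes, translated in the cytosol and imported into mitochondria. There they join 2 ribosomal RNAs of the mitochondrial genome to form the mitoribosome, whose small subunit reads the message and whose large subunit joins the amino acids. The mitoribosome translates the few respiratory chain proteins that mitochondrial DNA encodes, and the genes for its proteins are known as a coordinately expressed set that responds to growth signals, among them the transcription factor MYC. The genes described here are all rows of the deposited expression table whose mouse symbol has the form Mrpl or Mrps, a number and at most 1 letter, and whose value lay at least 1 unit above the lowest value of the table in at least 4 of 16 libraries. Of 24334 genes in the table, 15715 passed that filter, and 78 of them were members: 49 Mrpl genes, named for the large subunit, and 29 Mrps genes, named for the small one. All 78 genes with such a symbol passed the filter, so no member was lost to it.

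The libraries came from tumour cells enriched from mice bearing tumours of LLC1, a mouse Lewis lung carcinoma cell line. The mice received DMSO (Vehicle), the class IIa histone deacetylase inhibitor TMP195 at 50 mg/kg, the MYC inhibitor MYCi975 at 50 mg/kg, or both compounds (Combo, dose of each not stated) for 16 days. Every group held 4 libraries, numbered 1 to 4, and all came from the same single line. The labels read here give no genotype, strain or age of the mice. They also do not state that each library is a different animal, and p-values then reflect only how these libraries vary, part of which may be technical. The series asks what the drugs change in tumour cells in vivo and names mitochondrial dysfunction in its title. Values are variance-stabilised expression on a scale close to log2, with a lowest value of 4.84. The total count per library is unknown.

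Some libraries stood apart irrespective of treatment. On the first principal component, which held 21.2% of the variance of all tested genes, Vehicle 4, TMP195 4 and MYCi975 4 scored 26.6 to 33.2, and the other 13 libraries at most 5.90. The score rose with the replicate number within every group. Libraries numbered 1 scored lowest of all, at -13.7 in Vehicle, -19.5 in TMP195, -16.6 in MYCi975 and -18.4 in Combo. The main fit held no term for replicate number. The enriched cells had high Vim, Col3a1 and Pdgfra and also the keratins Krt8 and Krt18, while Epcam and Cdh1 lay at or near the lowest value and failed the filter. Of 7 leukocyte markers, 6 were tested. The summed level of all 7 above the lowest value was 5.09 to 8.88 in Vehicle, 7.11 to 17.0 in TMP195, 4.97 to 11.4 in MYCi975 and 5.20 to 8.05 in Combo. Ptprc, the pan-leukocyte marker, was above the lowest value in every library, and none of the lymphocyte markers passed the filter. In such bulk samples, fewer cells of a type and less RNA per cell cannot be told apart.

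As a set the members had lower values in TMP195 and, to a smaller extent, in Combo than in Vehicle. Averaged over the 78 genes, the level in the Vehicle libraries was 8.94, 8.92, 8.78 and 9.01, a mean of 8.91 ± 0.095 (SD, n = 4). It was 8.82, 8.75, 8.79 and 8.77 in TMP195 (8.78 ± 0.030), 8.80, 8.88, 8.86 and 8.95 in MYCi975 (8.87 ± 0.060) and 8.86, 8.76, 8.82 and 8.84 in Combo (8.82 ± 0.043). Vehicle 3 lay as low as the treated libraries, and apart from it every Vehicle library was above all 4 TMP195 libraries and all 4 Combo libraries. The groups therefore overlapped through 1 control library. By order of group means, Vehicle was the highest group for 48 of the 78 genes, and the lowest group was TMP195 for 44 and Combo for 23. MYCi975 was the lowest for 7 and Vehicle for 4.

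**Figure D1:**
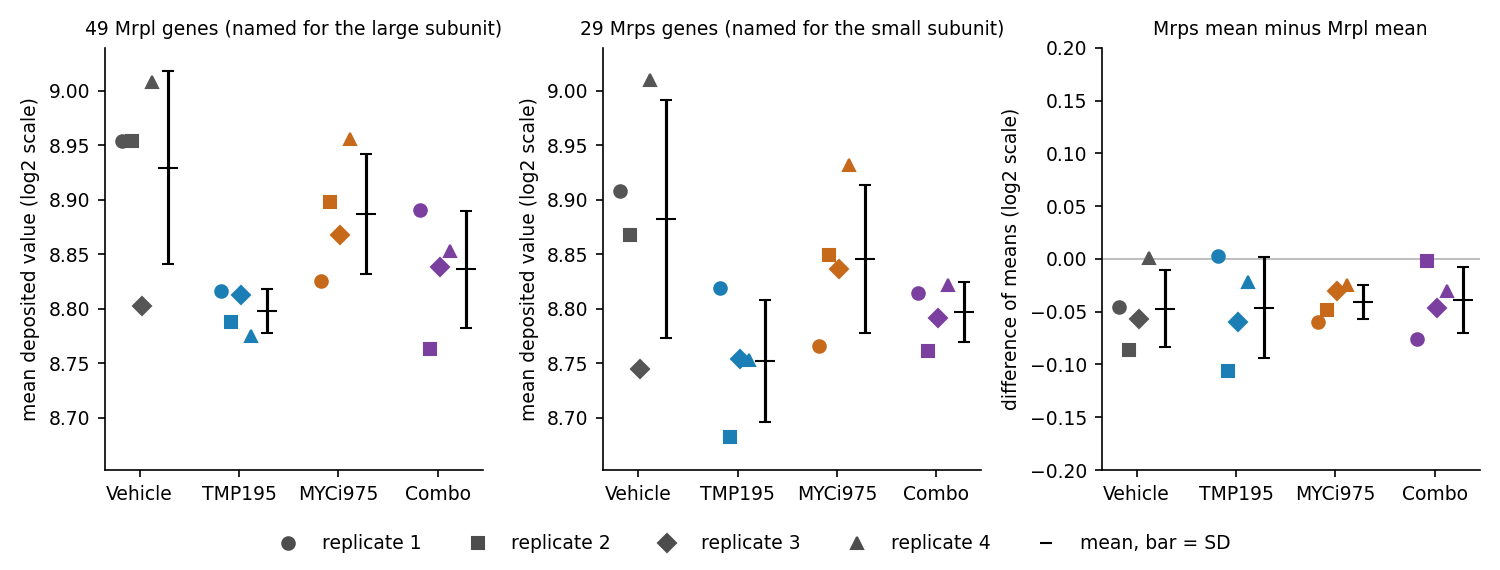
Mean deposited value (log2 scale) of the 49 Mrpl genes and of the 29 Mrps genes in each library, and the Mrps mean minus the Mrpl mean, by group; symbols are replicates and bars the group mean ± SD (n = 4). Vehicle 3 sits well below the other Vehicle libraries in both name groups, and the Mrps minus Mrpl difference is alike in all 4 groups.

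No member passed the test in any comparison. A linear model over all 16 libraries (limma, moderated with an intensity trend, Benjamini-Hochberg adjustment over all tested genes) called 0 of 15715 genes (0%) at an adjusted p under 0.05 for TMP195 minus Vehicle, 0 (0%) for MYCi975 minus Vehicle and 0 (0%) for Combo minus Vehicle. It also called 0 (0%) for Combo minus TMP195, 0 (0%) for Combo minus MYCi975 and 0 (0%) for the interaction, which is Combo minus MYCi975 minus TMP195 plus Vehicle. The standard error of a member's difference ran from 0.10 to 0.30 with a median of 0.14, and the 95% interval reached 0.30 to each side at the median. Within groups the SD of a member had a median of 0.19, from 0.099 for Mrpl44 to 0.49 for Mrps21, compared with a median of 0.22 over all tested genes.

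Relative to Vehicle, 72 of the 78 members were lower in TMP195, 45 of 49 Mrpl genes and 27 of 29 Mrps genes, against 53.7% of all tested genes. The median difference was -0.13 on the log2 scale for the members, -0.13 for each of the 2 name groups, and -0.014 for all genes. When each library was first centred on its median over all tested genes, 64 members and 43.5% of all genes were lower. At an unadjusted p under 0.05, 6 members were lower, with 2.44% of all genes so, and 0 members were higher, with 2.44% of all genes so. The 6 were Mrpl4, Mrpl35, Mrpl40, Mrpl57, Mrps2 and Mrps6. The all-gene background depends on the filter. With only genes at least 3 above the lowest value in 8 libraries kept, 59 of 63 members and 61.4% of all genes were lower. The medians were then -0.13 for the members and -0.040 for all genes. The leukocyte markers were higher in TMP195 for all 6 tested, with a median difference of 0.73, as were the 3 tested macrophage markers (1.17). Without TMP195 1, the library highest in both lists, these medians were 0.38 and 0.88. With the leukocyte level as a covariate the member median was -0.16, with 66 members and 51.6% of all genes lower. In that fit 3 members were lower at an unadjusted p under 0.05. Without TMP195 1 and MYCi975 3 the median was -0.13, with 72 members and 53.6% of all genes lower, and 3 members at that p. Without TMP195 1 and TMP195 2, the libraries highest in leukocyte markers, it was -0.12, with 67 members and 53.1% of all genes lower. There 4 members were at that p. The share of all genes at that p is not given for these alternative fits, so their counts at that p cannot be set against a background.

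Control libraries weigh on that value. Vehicle 4 stands apart from the rest and has the highest member level. Without it, 62 members and 52.2% of all genes were lower, and the member median was -0.080. Without Vehicle 3 the member median was -0.18, with 74 members and 53.7% of all genes lower. Without all libraries numbered 4 it was -0.086, with 61 members and 51.1% of all genes lower.

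The 6 members that were higher in TMP195 than in Vehicle were Mrpl11, Mrpl23, Mrpl45, Mrpl53, Mrps18a and Mrps30. Mrps18a and Mrps30 carry small subunit names but are built into the large subunit, and their differences were 0.09 ± 0.15 and 0.03 ± 0.12 (SE). Mrpl11, the counterpart of the bacterial stalk base protein, together with Mrpl23, Mrpl45 and Mrpl53, were also above Vehicle in MYCi975 and Combo. Mrpl23 has an unmatched pseudogene row, Mrpl23-ps1, at a mean value of 7.57 beside 7.36 for Mrpl23, and reads may have been divided between them, so its values are uncertain. Mrpl48 also has one, Mrpl48-ps, at 5.33, which failed the filter.

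**Figure D2:**
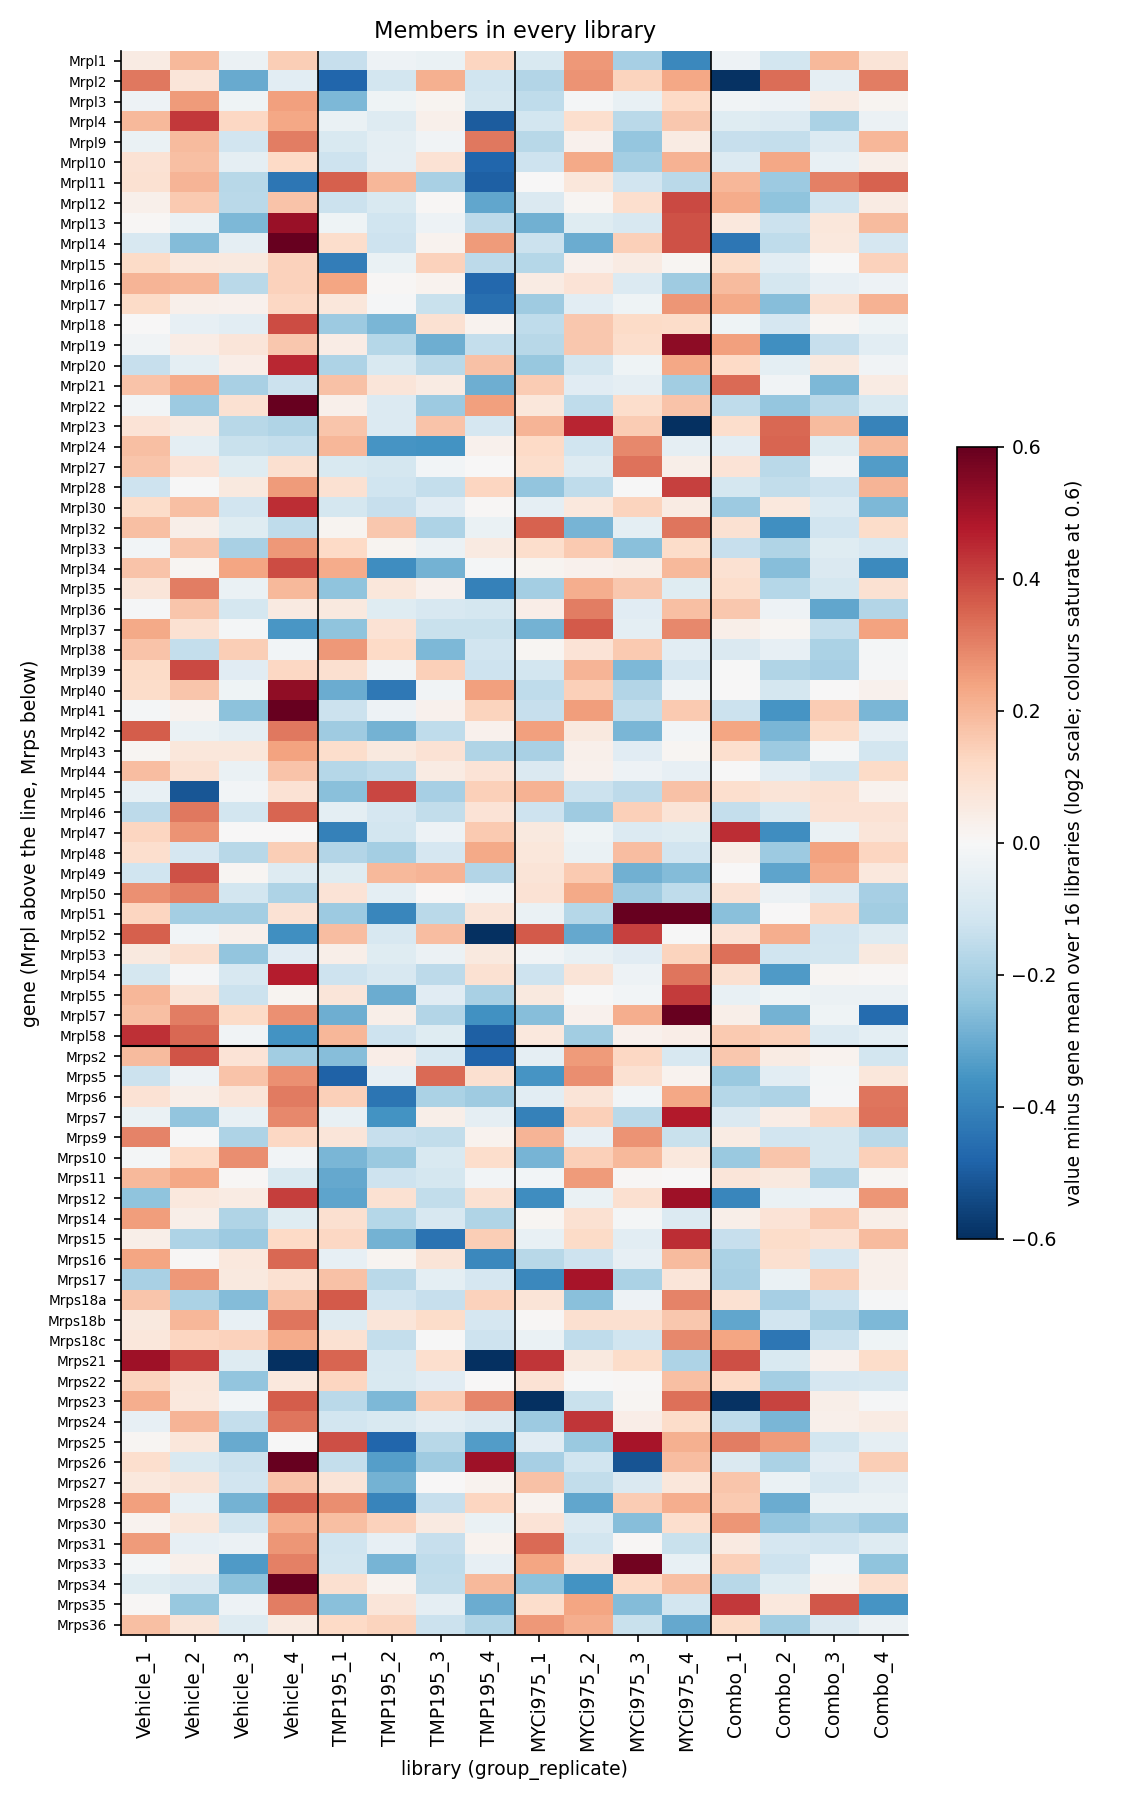
Value of each of the 78 genes in each of 16 libraries, minus the gene's own mean over all libraries (log2 scale, colours saturate at 0.6), Mrpl genes above and Mrps genes below the line. Red predominates in Vehicle 1, 2 and 4, where 56, 54 and 59 genes lie above their own mean, and in MYCi975 4 (53), and blue in TMP195 2 and Combo 2, where 20 genes do in each, and in Vehicle 3 (23).

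MYCi975 alone gave a smaller and less uniform difference. Against Vehicle, 52 of 78 members were lower (32 Mrpl, 20 Mrps), with 52.9% of all genes lower, and the median was -0.050 (all genes -0.010). At an unadjusted p under 0.05, 0 members were lower and 0 higher, against 1.51% of all genes in each direction. Without Vehicle 4 the median was -0.012, without MYCi975 1 it was -0.015, and without Vehicle 3 it was -0.085. With only genes at least 3 above the lowest value in 8 libraries kept, 42 of 63 members and 59.8% of all genes were lower. The medians were then -0.056 for the members and -0.031 for all genes. The 4 neutrophil markers tested were all higher in MYCi975, with a median difference of 0.50, but it was 0.11 without MYCi975 3, with 3 of the 4 higher. All 4 were also higher in TMP195 than in Vehicle, with a median difference of 0.68. The part of these markers in the member values was not tested. Differences ran from -0.42 for Mrps26, a mitochondria-specific protein of the small subunit, to 0.35 for Mrpl51, a mitochondria-specific protein of the large one. The values of Mrps26 in Vehicle were 8.15, 7.96, 7.92 and 9.18 and in MYCi975 7.85, 7.93, 7.53 and 8.23. Its Vehicle 4 library was far above the other 3, and the groups overlapped (SE 0.25, unadjusted p = 0.11 in limma). Mrpl51 read 8.18, 7.84, 7.85 and 8.13 in Vehicle and 8.01, 7.87, 8.82 and 8.71 in MYCi975. Only MYCi975 3 and 4 were high, and the other MYCi975 libraries lay among the controls.

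Transcripts of Myc itself, the target named for MYCi975, had differences of -0.21 (MYCi975), 0.08 (TMP195) and -0.24 (Combo) from Vehicle, all with an SE of 0.21. Myc read 12.06, 11.77, 11.71 and 11.46 in Vehicle and 11.90, 11.36, 11.64 and 11.26 in MYCi975. These overlap. The RNA level does not measure the activity of the protein.

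Combo lay between TMP195 and MYCi975 in the members as a whole. Against Vehicle, 63 of 78 members were lower (40 Mrpl, 23 Mrps), with 52.6% of all genes lower, and the median was -0.099 (all genes -0.010). It was -0.070 without Vehicle 4, -0.14 without Vehicle 3, and -0.081 without all libraries numbered 4. In the last fit 60 members and 52.3% of all genes were lower. At an unadjusted p under 0.05, 5 members were lower, against 1.92% of all genes, namely Mrpl4, Mrpl30, Mrpl34, Mrpl57 and Mrps18b. None was higher, against 2.17% of all genes. With only genes at least 3 above the lowest value in 8 libraries kept, 50 of 63 members and 60.1% of all genes were lower. The medians were then -0.079 for the members and -0.036 for all genes. TMP195, MYCi975 and Combo share the same Vehicle libraries, so their differences are not independent. Below Vehicle in all 3 treatments were 48 members. The 4 fibroblast markers were all higher in Combo than in Vehicle, with a median difference of 0.37, and their part was not tested.

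Against the single compounds, the members of Combo were mostly above TMP195 and below MYCi975. For Combo minus TMP195, 28 of 78 members were below 0 (16 Mrpl, 12 Mrps), with 49.3% of all genes below 0, and the median was 0.041. For Combo minus MYCi975, 48 were below 0 (26 Mrpl, 22 Mrps), with 49.8% of all genes, and the median was -0.043. Mrps18b was the 1 member lower at an unadjusted p under 0.05 in each, against 2.84% and 1.18% of all genes, and none was higher, against 2.49% and 1.15%. Leaving out TMP195 2 or Combo 1 took the first median to 0.022 or 0.024. Leaving out both TMP195 1 and TMP195 2 took it to 0.015, with 38 members and 48.6% of all genes below 0. Leaving out MYCi975 2, MYCi975 4, Combo 2 or Combo 3 took the second median to between -0.028 and -0.0095. For the interaction 18 of 78 members were below 0, against 48.2% of all genes, with a median of 0.079. Neither direction of the interaction had a member at an unadjusted p under 0.05, against 1.6% of all genes below 0 and 1.4% above.

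**Figure D3:**
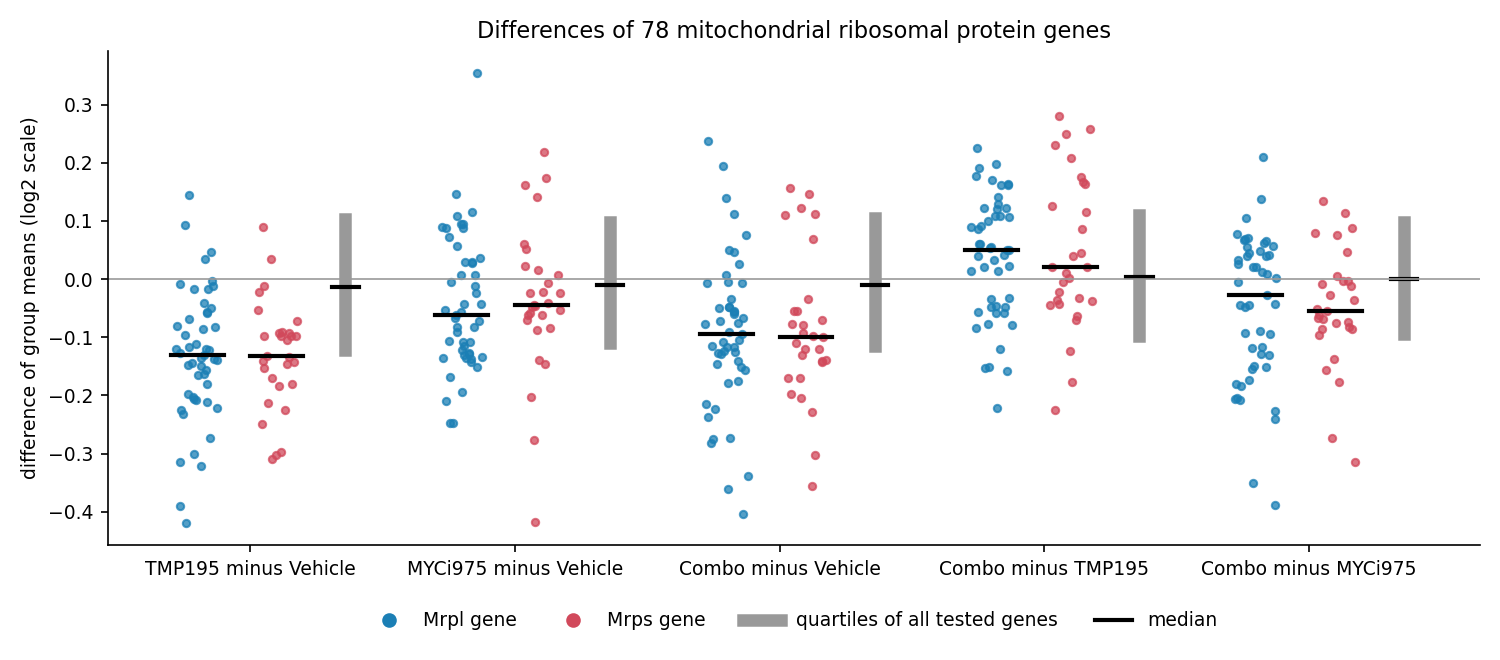
Difference of group means (log2 scale) of each Mrpl gene and each Mrps gene in 5 comparisons; black lines are medians and grey bars the quartiles of all tested genes. The members sit lowest in TMP195 minus Vehicle, with medians of -0.13 for both name groups, and straddle 0 in Combo against the single compounds.

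The Mrpl and Mrps genes differed from Vehicle to a like extent. In Vehicle the Mrps mean was below the Mrpl mean by 0.047 ± 0.037 (SD, n = 4), and in TMP195, MYCi975 and Combo the Mrps mean minus the Mrpl mean was -0.046 ± 0.048, -0.041 ± 0.016 and -0.039 ± 0.031. The group means of this contrast lay closer together than its pooled SD between libraries of 0.035. Such a contrast between different genes is read across groups only, because the values are not corrected for transcript length. Members with a bacterial counterpart and members specific to mitochondria also gave similar medians. The 46 of bacterial type had a median of -0.14 in TMP195 minus Vehicle (44 lower) and the 32 of mitochondrial type -0.12 (28 lower). All 16 small subunit genes with a bacterial counterpart were lower in TMP195, with a median of -0.14. In Combo minus Vehicle the medians were -0.096 and -0.11, and in MYCi975 minus Vehicle -0.050 and -0.051.

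A library level common to the members was visible. Moving together by library accounted for 12.5% of the members' variance, 8.40% for 78 nuclear respiratory chain genes and 17.7% for 78 cytosolic ribosomal protein genes, and for 0.056% over all tested genes. In the 16 libraries between 48.7% and 50.9% of all genes lay above their own mean, whereas 20 to 59 of the 78 members did. The values are normalised, which holds the level over all genes nearly equal between libraries. Both all-gene figures are therefore largely fixed in advance and are not a like-sized background. No set of 78 unrelated genes was examined. Members that move together by library are not separate tests of a treatment.

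Mrps18b was the member that set Combo apart. Mrps18b is 1 of 3 mammalian relatives of bacterial ribosomal protein S18, with Mrps18a and Mrps18c, and sits in the small subunit. It read 9.37, 9.52, 9.27 and 9.64 in Vehicle, 9.24, 9.39, 9.43 and 9.22 in TMP195, 9.33, 9.41, 9.41 and 9.48 in MYCi975, and 9.01, 9.20, 9.12 and 9.05 in Combo. All 4 Combo libraries lay below the other 12, by a narrow margin of 9.20 for the highest Combo library against 9.22 for TMP195 4. No other member had that pattern in either direction, and 7 of all tested genes (0.0445%) had all Combo libraries lowest. The difference was -0.36 ± 0.10 (SE) against Vehicle with an unadjusted p of 0.0030, but the Benjamini-Hochberg adjusted p in limma was 0.987. Against TMP195 it was -0.22 (adjusted p = 0.925 in limma) and against MYCi975 -0.31 (adjusted p = 1 when rounded).

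Its relatives did not share the pattern in their values. Mrps18c, a small subunit protein, read 7.04, 6.37, 6.68 and 6.78 in Combo against 6.87, 6.94, 6.94 and 7.03 in Vehicle, a difference of -0.23. Combo 1 was above every Vehicle library and Combo 2 the lowest of all. Mrps18a, in the large subunit, differed by -0.03 between Combo and Vehicle.

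Mrpl4, the counterpart of bacterial L4 that lines the exit tunnel of the large subunit, was the member with the smallest p in TMP195 minus Vehicle. It read 8.83, 9.06, 8.76 and 8.87 in Vehicle, 8.60, 8.56, 8.67 and 8.14 in TMP195, 8.53, 8.73, 8.47 and 8.80 in MYCi975, and 8.56, 8.55, 8.45 and 8.60 in Combo. Every TMP195 and every Combo library was below every Vehicle library, and TMP195 4 was the lowest of all. The differences from Vehicle were -0.39 ± 0.13 (SE) for TMP195, -0.34 for Combo and -0.25 for MYCi975, with adjusted p-values of 0.945, 0.987 and 0.999 in limma.

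Mrpl57, a small mitochondria-specific protein of the large subunit, had the largest differences of all members in both TMP195 and Combo. It read 8.18, 8.31, 8.12 and 8.27 in Vehicle, 7.71, 8.04, 7.82 and 7.64 in TMP195, and 8.03, 7.72, 7.97 and 7.54 in Combo. Both treated groups lay wholly below Vehicle, by -0.42 ± 0.17 and -0.40 ± 0.17 (SE). In MYCi975 it spread from 7.75 to 8.67, around the Vehicle values.

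Counts of members whose groups did not overlap were small. Below Vehicle these were 2 of 78 in TMP195 (Mrpl4 and Mrpl57), against 1.4% of all genes, and 3 in Combo (Mrpl4, Mrpl57 and Mrps18b), against 1.53%. In MYCi975 there was 1, Mrpl15, against 0.706%. Combo lay wholly below TMP195 for 2, Mrpl33 and Mrps18b, against 1.62%, and wholly below MYCi975 for 2, Mrpl55 and Mrps18b, against 0.815%. Mrpl15, a relative of a bacterial large subunit protein, read 9.89, 9.84, 9.83 and 9.91 in Vehicle and 9.60, 9.80, 9.82 and 9.78 in MYCi975, so that MYCi975 1 carries most of the difference of -0.11.

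Other named members showed groups that overlapped with Vehicle. Of these, Mrps2, Mrps6, Mrpl35 and Mrpl40 in TMP195 and Mrpl30 and Mrpl34 in Combo had an unadjusted p under 0.05 in limma. The rest did not. Mrps2, the counterpart of bacterial S2, read 9.73, 9.92, 9.62 and 9.33 in Vehicle and 9.28, 9.58, 9.44 and 9.06 in TMP195, a difference of -0.31 ± 0.14 (SE). Mrps6, the counterpart of S6, read 9.50, 9.45, 9.48 and 9.72 in Vehicle and 9.55, 8.97, 9.22 and 9.20 in TMP195. TMP195 1 lay among the Vehicle values and the other 3 below them. Mrpl40 and Mrpl35 differed by -0.32 and -0.27 in TMP195, and Mrpl34 and Mrpl30 by -0.36 and -0.28 in Combo. Mrpl12, the stalk protein that contacts translation factors, and Mrps12, at the decoding site, differed by -0.18 and -0.14 in TMP195 and by -0.07 and -0.12 in Combo. Mrps16, the counterpart of S16, had differences of -0.25 in TMP195 and -0.20 in both other treatments. Mrps23, a small subunit protein, differed by -0.28 in MYCi975, where it read 7.86, 8.41, 8.56 and 8.88 against 8.76, 8.61, 8.53 and 8.91 in Vehicle, so that MYCi975 1 was the lowest and the groups overlapped. Mrpl40 and Mrps33 differed by -0.25 and 0.22 in MYCi975, and Mrps31 by -0.17 in Combo.

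Between Combo and MYCi975 the other members with the smallest p showed partial overlap. Mrpl51 was lower in Combo than in MYCi975 by a difference of -0.39 ± 0.19 (SE), with Combo values of 7.80, 8.05, 8.17 and 7.84. The high libraries MYCi975 3 and 4 set that difference. Mrpl57 had a difference of -0.35 in the same comparison, and Mrps33, a mitochondria-specific small subunit protein, -0.27, with values of 8.81, 8.65, 9.15 and 8.53 in MYCi975 and 8.71, 8.45, 8.56 and 8.33 in Combo. Mrpl19 and Mrpl27, both with bacterial counterparts, had -0.24 and -0.21, Mrps9 -0.16 and Mrps22 -0.14.

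For Combo against TMP195, most of the other named members were higher in Combo. Mrps35 was higher in Combo by 0.26 and Mrps2 and Mrpl24 by 0.23 each, and Mrps14, the counterpart of bacterial S14, by 0.17. Mrpl17 and Mrpl15 had differences of 0.20 and 0.16. Mrpl33 was lower in Combo, with a difference of -0.16 and Combo wholly below TMP195. Mrps14 read 9.90, 9.63, 9.71 and 9.62 in TMP195 and 9.84, 9.89, 9.96 and 9.84 in Combo, where TMP195 1 lay among the Combo values and the other 3 TMP195 libraries below them. Mrps30, in the large subunit, was also lower in Combo, with a difference of -0.18. Its values were 11.27, 11.22, 11.14 and 11.04 in TMP195 and 11.35, 10.85, 10.90 and 10.87 in Combo, so Combo 1 was the highest of these 8 libraries and the other 3 Combo libraries the lowest.

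**Figure D4:**
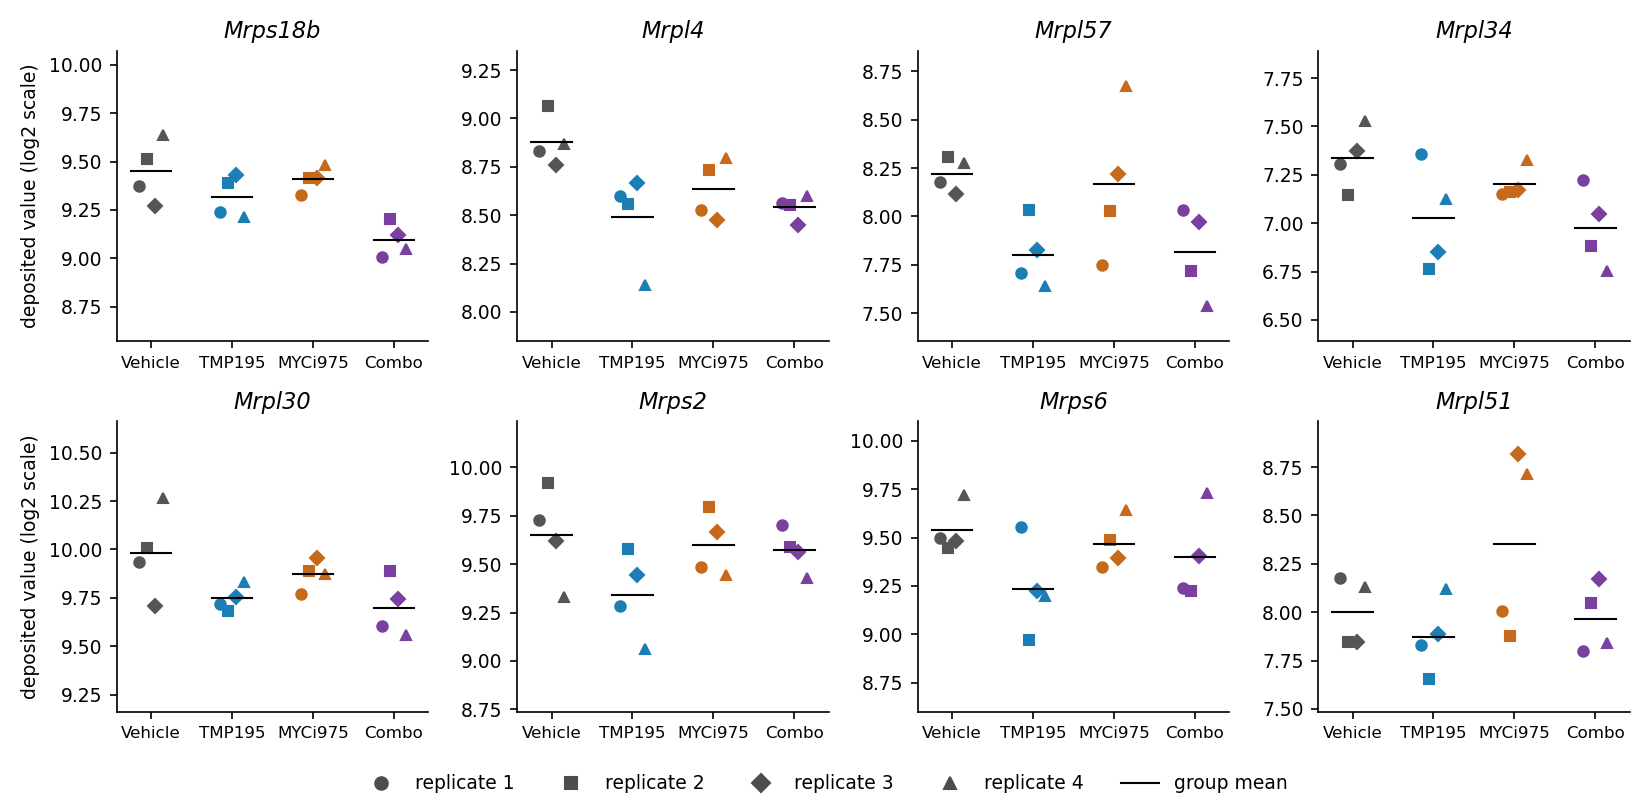
Deposited value (log2 scale) of 8 members in each library, by group; symbols are replicates and lines group means, and every panel spans the same range of 1.5 units. The 4 Combo libraries of Mrps18b sit below all others, at 9.01 to 9.20, and Mrpl4 and Mrpl57 sit below Vehicle in every TMP195 and Combo library.

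A pair of members have roles beyond the ribosome's own structure. Mrpl58, a peptidyl-tRNA hydrolase built into the large subunit that rescues stalled ribosomes, had differences from Vehicle of -0.22 (TMP195), -0.12 (MYCi975) and -0.06 (Combo). Its Vehicle values ran from 8.55 to 9.35, and an antisense transcript is annotated beside it, whose reads can be told apart only if the counting used strand. Mrps36, now known as a component of the 2-oxoglutarate dehydrogenase complex, differed by -0.07, -0.05 and -0.11.

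Promoter sequence was compared because MYC binds the E-box CACGTG, and because NRF1 (GCGCATGC), GABP and other ETS factors (CCGGAAGT) and YY1 (ATGGCGGC) are known regulators of nuclear genes for mitochondrial proteins. RefSeq promoters of build GRCm38.p6, from 250 bases before to 50 after the start, were matched by symbol for 69 of 78 members and searched on both strands, each motif separately. CACGTG is its own reverse complement, and GCGCATGC overlaps its own within GCGCATGCGC. The E-box occurred in 5 of 69 members (7.25%), in 8.09% of all genes with a promoter in the table and in 11.4% of tested genes. GCGCATGC occurred in 8 (11.6%, against 3.05% and 5.85%). CCGGAAGT and ATGGCGGC occurred in 12 each (17.4%, against 4.31% and 9.18% for CCGGAAGT and 2.60% and 5.71% for ATGGCGGC). A match is a stretch of letters, and binding was not measured.

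The E-box windows are shown because they are the members' exact matches to the site of the factor that MYCi975 targets, 60 bases of the strand of the gene, 5′ to 3′, with the E-box in capitals. Mrpl37 lies at chr4:107066996-107067055 (minus strand), Mrpl20 at chr4:155802818-155802877 (plus), Mrps18c at chr5:100798569-100798628 (plus), Mrpl36 at chr13:73330939-73330998 (plus) and Mrpl2 at chr17:46646063-46646122 (plus).
Mrpl37: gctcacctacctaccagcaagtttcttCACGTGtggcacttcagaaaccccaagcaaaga
Mrpl20: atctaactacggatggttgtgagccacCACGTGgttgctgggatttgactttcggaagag
Mrps18c: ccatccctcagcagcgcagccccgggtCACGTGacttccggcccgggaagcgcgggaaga
Mrpl36: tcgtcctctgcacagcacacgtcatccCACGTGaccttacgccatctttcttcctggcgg
Mrpl2: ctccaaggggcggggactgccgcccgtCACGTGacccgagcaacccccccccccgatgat

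In MYCi975 minus Vehicle these 5 genes had a median difference of 0.088, from -0.15 for Mrps18c to 0.11 for Mrpl2, and 2 of the 5 were lower. The 64 members without an E-box in the window had a median of -0.053, with 43 lower. In TMP195 minus Vehicle all 5 were lower, with a median of -0.13, and 58 of the 64 others were lower, with a median of -0.12. In Combo minus Vehicle 4 of the 5 were lower, with a median of -0.049, against -0.099 for the others. With 5 genes this is a description of them.

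The promoter of Mrps18b, whose 4 Combo libraries lay below the other 12, holds the NRF1 core on the opposite strand at positions -223 and 28 from its start. The upstream match is shown in capitals, at chr17:35916631-35916690 (minus strand, GRCm38.p6). Mrpl17 and Mrpl39 are shown for comparison because the same letters stand in their windows, on the strand of the gene for Mrpl17 and in both orientations for Mrpl39. They lie at chr7:105811088-105811147 and chr16:84735337-84735396, both on the minus strand.
Mrps18b: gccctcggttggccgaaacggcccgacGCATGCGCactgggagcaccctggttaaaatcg
Mrpl17: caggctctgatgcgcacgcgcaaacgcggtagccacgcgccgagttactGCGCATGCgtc
Mrpl39: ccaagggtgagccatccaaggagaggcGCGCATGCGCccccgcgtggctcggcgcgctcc

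All 8 members with these letters were lower in Combo than in Vehicle, with a median difference of -0.15. The range was from -0.36 for Mrps18b, shown here because of its low Combo values, to -0.01 for Mrpl17. Of all 78 members 63 were lower in Combo (median -0.099), and of all tested genes 52.6%. The pattern was not particular to Combo: all 8 were also lower in TMP195 (median -0.12), and 7 of the 8 in MYCi975 (-0.062). The Combo minus Vehicle difference of Mrpl39 was -0.24, and its MYCi975 minus Vehicle difference -0.21. Mrpl39 read 9.64, 9.92, 9.45 and 9.65 in Vehicle and 9.52, 9.34, 9.33 and 9.52 in Combo, and the groups overlapped.

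Many members share a promoter region with a neighbour. In the GENCODE M21 annotation, 33 of 78 members (42.3%) have the start of a protein-coding gene on the opposite strand within 1000 bases, against 2039 of 12384 tested protein-coding genes (16.5%). Of these neighbours 31 were tested, among them Mrpl46 and Mrps11, which are members and each other's neighbour. Of the 31, 21 were lower in TMP195 (median -0.087), 21 in MYCi975 (-0.077) and 24 in Combo (-0.12). Of all tested genes 53.7%, 52.9% and 52.6% were lower. Mrpl57 starts 49 bases from Ska3, which encodes a kinetochore protein, and the Ska3 differences were -0.35 in TMP195 and -0.33 in Combo beside -0.42 and -0.40 for Mrpl57. Mrps18b starts 45 bases from Ppp1r10, a regulator of protein phosphatase, which differed by -0.17 in Combo beside -0.36. Mrpl46 and Mrps11, a pair within the family, start 412 bases apart and differed by -0.16 and -0.22 in TMP195. Members lay on 17 chromosomes, with at most 11 on 1.

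Other genes of mitochondrial translation were taken from lists, and none was called in any comparison. The 5 tested mitoribosome proteins without an Mrpl or Mrps symbol were all lower in TMP195 (median -0.17), and 4 of 5 were lower in MYCi975 (-0.12) and in Combo (-0.17). Among them Gadd45gip1, in the large subunit, read 8.34, 8.04, 8.30 and 8.48 in Vehicle and 7.86, 7.89, 8.01 and 8.13 in TMP195. Its TMP195 values overlapped only with Vehicle 2, and the difference was -0.32 ± 0.14 (SE, adjusted p = 0.945 in limma).

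Of 25 genes for assembly of the mitoribosome, 18 were lower in TMP195 (median -0.057), 13 in MYCi975 (-0.0092) and 15 in Combo (-0.033). Eral1, a chaperone of the small subunit's ribosomal RNA, read 8.79, 8.32, 8.67 and 8.79 in Vehicle and 8.03, 8.13, 8.37 and 8.27 in TMP195, a difference of -0.44 ± 0.14 (SE, adjusted p = 0.945 in limma). Of the TMP195 libraries only TMP195 3 exceeded the lowest Vehicle library. Of 16 translation factors and related proteins, 11 were lower in TMP195 (median -0.067), and of 20 mitochondrial tRNA synthetases and related enzymes 14 were (-0.027).

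Genes that make and process mitochondrial RNA had medians near those of the members in TMP195 and Combo. Of 15, 11 were lower in TMP195 (median -0.13), 13 in MYCi975 (-0.11, beside -0.050 for the members) and 11 in Combo (-0.11). Supv3l1, the helicase of the mitochondrial RNA degradation complex, read 9.52, 9.58, 9.78 and 9.59 in Vehicle. It read 9.25, 9.45, 9.33 and 9.07 in TMP195, 9.40, 9.51, 9.50 and 9.10 in MYCi975, and 9.35, 9.12, 9.05 and 9.35 in Combo, all below every Vehicle library. The differences were -0.34, -0.24 and -0.40, with adjusted p-values of 0.945, 0.999 and 0.987 in limma.

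Messages that the mitoribosome translates had medians of different sign across treatments. Of the 13 protein genes of mitochondrial DNA, 9 were lower in TMP195 (median -0.088), 5 in MYCi975 (0.11) and 11 in Combo (-0.24). Their library spread was wide: mt-Atp6, a subunit of ATP synthase, read 13.34, 13.29, 13.68 and 13.50 in Vehicle and 13.48, 13.09, 12.22 and 12.39 in Combo. Combo 1 lay among the Vehicle values and the other 3 Combo libraries below them. Nuclear respiratory chain genes had medians of -0.092 in TMP195 (58 of 78 lower), -0.051 in MYCi975 (52 lower) and -0.089 in Combo (55 lower). Cytosolic ribosomal protein genes were mostly lower in TMP195 and Combo as well, with medians of -0.086 (64 of 78 lower) in TMP195, -0.017 (46 lower) in MYCi975 and -0.12 (66 lower) in Combo.

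**Figure D5:**
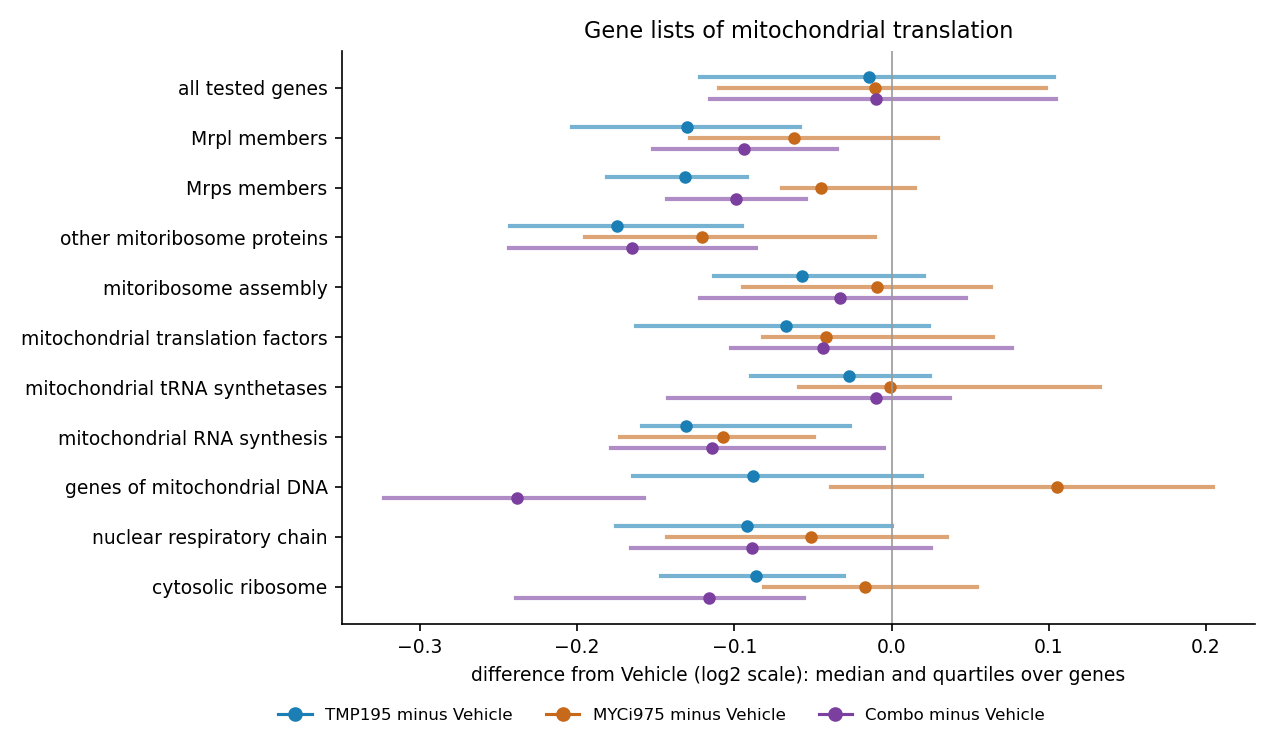
Median (point) and quartiles (line) over the genes of each list of the difference from Vehicle (log2 scale), for TMP195, MYCi975 and Combo. The Mrpl and Mrps medians of -0.13 in TMP195 stand beside -0.092 for the nuclear respiratory chain and -0.086 for the cytosolic ribosome, and the genes of mitochondrial DNA spread from -0.24 in Combo to 0.11 in MYCi975.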

How the data were processed

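The authors deposited 1 column of variance-stabilised, log2-like values for each library. The submitters' processing notes name Salmon and the build hg38, although the samples and identifiers are mouse; the tool of the transformation is not given in the sources used here. Libraries were made with a stranded total RNA kit, per the labels' protocols; whether counting used strand is not given. The transformation shrinks differences of genes with low expression. Symbols were matched for 23150 of 24334 identifiers (95.13%). Genes at least 1 above the lowest value in 4 of 16 libraries were fitted with 1 mean per group (limma 3.58.1, R 4.3.3, empirical Bayes with trend), two-sided, for 6 comparisons. The fit was run on simulated data with independent noise and shifts of 1 or 2 units in some genes. That simulation held no level shared by library and no shift as small as those of the members. It therefore cannot show whether such differences would be found. The members and lists were chosen with earlier results of these data known. Genes named are, per comparison, the 4 Mrpl and 4 Mrps genes with the smallest p, a set of always-named members, Myc, and 2 genes per list; the members above Vehicle, Mrpl11 to Mrpl53, Mrpl44 and Mrps21, and neighbours with their distances, were chosen after their values were seen. Promoters came from RefSeq (GRCm38.p6) and neighbours from GENCODE M21. Alternatives were other filters, scalings and weights, no trend, the compared groups alone, a replicate block, a leukocyte covariate and libraries left out.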

Additional observations from a re-analysis of the deposited data

Results flagged for a closer look

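In 5 of 152 groups of 4 libraries tested among the named members and library summaries, 1 library lay far from the other 3 by Dixon's criterion; chance gives about 1 group in 20. In MYCi975, Mrpl33 was low in replicate 3 at 9.459, Mrpl34 was high in replicate 4 at 7.329, Mrpl58 was low in replicate 2 at 8.697 and Mrps11 was high in replicate 2 at 7.935. In Combo, Mrps30 was high in replicate 1 at 11.347.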

How the results depend on the processing

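Over 12 alternative settings, of which the fit without TMP195 1 and TMP195 2 was chosen after seeing the data, the member median kept its direction in every comparison: -0.16 to -0.086 for TMP195 minus Vehicle, -0.056 to -0.033 for MYCi975 minus Vehicle, -0.10 to -0.071 for Combo minus Vehicle, 0.015 to 0.055 for Combo minus TMP195 and -0.059 to -0.023 for Combo minus MYCi975. With 1 library left out it ran from -0.18 to -0.080, -0.085 to -0.012, -0.14 to -0.070, 0.022 to 0.058 and -0.062 to -0.0095. Counts of called genes were 0 except for Combo minus TMP195, with 1 without the intensity trend, 65 with library weights (smallest adjusted p of a member 0.208) and 1 without TMP195 1 and MYCi975 3, and Combo minus Vehicle, with 1 when the compared groups were fitted alone; the cause was not tested. With 1 library left out, 0 to 2 genes were called for TMP195 minus Vehicle and Combo minus TMP195, and 0 to 1 for MYCi975 minus Vehicle and Combo minus MYCi975. The 6 members lower at an unadjusted p under 0.05 in TMP195 became 2 with the groups fitted alone or median centring, 3 with quantile normalisation, the leukocyte covariate or without TMP195 1 and MYCi975 3, and 4 without TMP195 1 and TMP195 2. With 1 library left out they numbered 3 to 8, with 3 without Vehicle 1, TMP195 1 or Combo 3. The share of all genes at that p is not given for these fits, so these counts cannot be set against a background.

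The numbers 1 to 4 are not said to pair libraries. Deviations of same-numbered libraries correlated at -0.24 to 0.43, over 0.1 in 15 of 24 pairs, with a median of 0.19. Those of differently numbered libraries of different groups exceeded 0.1 in 10 of 72 pairs, with a median of -0.040. In 30 of 48 cases a library correlated best with its own number among the 4 of another group. The numbers therefore follow a shared structure whose source the labels do not give, and the main fit leaves it out. With a replicate block, 0 genes were called, the TMP195 member median was -0.13 as before, and 9 members had an unadjusted p under 0.05. The share of all genes at that p is not given for the block fit. The block changes the p-values of all genes, so this count is not a result about the members. Depth is unknown, and the within-group SD limits what 4 libraries a group can resolve.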
